A study of Monodelphis domestica with 2 samples.

Results

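The nuclei described here are those that the depositors' metadata assigned to the subclass L6b. They numbered 109, of 20150 glutamatergic nuclei with a subclass and of 32764 labelled nuclei in all, from 36558 barcodes. Single-nucleus RNA counts came from the primary visual cortex (V1) of 2 adult male gray short-tailed opossums (Monodelphis domestica), a marsupial, aged 1.5 years (animal 1) and 2 years (animal 2). Neither animal carried a label for a treatment or an allele, and both belonged to a single group. Cortex of both hemispheres was pooled by animal and cut away from the white matter. Nuclei were stained with the DNA dye Draq5 and sorted to remove debris. The suspension of each animal gave 2 libraries (1A and 1B, 2A and 2B), which count as 1 replicate. Different experimenters processed the animals, so animal, age and experimenter cannot be told apart.

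Layer 6b is the thin, deepest tier of neocortex next to the white matter. In rodents its neurons are regarded as partly surviving subplate neurons, which are among the earliest cortical neurons to be born and guide thalamic axons during development. Adult rodent layer 6b neurons are known for responding to the arousal peptide orexin, and some project to thalamus or to superficial cortical layers. Genes used to name them in rodents include CPLX3 (complexin 3, a regulator of vesicle release), NXPH4 (a neurexophilin, a secreted ligand of neurexins) and DRD1 (the D1 dopamine receptor).

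Animal 1 gave 56 of the L6b-labelled nuclei and animal 2 gave 53, from 31, 25, 21 and 32 nuclei in libraries 1A, 1B, 2A and 2B. They made up 0.616% of the glutamatergic nuclei of animal 1 (95% exact binomial interval 0.466 to 0.800) and 0.479% of those of animal 2 (0.359 to 0.626), or 0.548% ± 0.0972 (SD, n = 2 animals). The 2 intervals overlapped. Over libraries the share ran from 0.455% in 2A to 0.666% in 1A, and both libraries of animal 1 lay above both of animal 2. How closely the cut followed the white matter in each animal was not recorded in the sources used here, and its part in the share was not tested. All L6b-labelled nuclei formed 1 type. Their median depth was 9809.5 unique molecular identifiers (UMIs, each a captured RNA molecule) in animal 1 and 8763 in animal 2, against 8112 and 8052.5 in the other glutamatergic nuclei. Their shallowest nucleus held 2479 UMIs. Scrublet, the doublet caller used in the deposit, marked 1 of the 109 (0.917%) against 529 of the other 20041 glutamatergic nuclei (2.64%). Of 134 barcodes found in more than 1 library, 1 belonged to an L6b-labelled nucleus.

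For the gene comparisons, UMI counts were summed over the L6b-labelled nuclei of each animal (550746 and 504200 UMIs) and over its other glutamatergic nuclei (78633933 and 98241178 UMIs), and levels are given as CPM, the UMIs of a gene scaled to an equal total in every sum. In the L6b sums a single UMI was worth 1.82 CPM in animal 1 and 1.98 CPM in animal 2. Because the subclass was clustered from these same genes, a gene that differs between L6b and the rest is part of how the label arose. The comparisons are therefore descriptions, with the values of both animals and no test.

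None of the markers named above bore out the label in these libraries. CPLX3 (ENSMODG00000009288) was nearly absent from the L6b-labelled nuclei, with 1 UMI in animal 1 (1.82 CPM) and 0 in animal 2. After every nucleus was thinned to 2000 UMIs, 0 of 109 L6b-labelled nuclei held a CPLX3 UMI, which allows a share of nuclei with a UMI of up to 2.75% (3 counts of the total) and sets no limit on nuclei expressing the gene. At full depth 1 of 109 did (0.917%, 0.0232 to 5.01). The subclass with the highest CPLX3 level among glutamatergic nuclei was L5NP, the near-projecting neurons of the fifth layer, at 8.07 and 8.49 CPM in animals 1 and 2. At full depth 41 of 744 L5NP nuclei (5.51%) held a CPLX3 UMI, against 1 of 4047 oligodendrocytes (0.0247%), which serve as background. Lamp5 interneurons, which express CPLX3 in rodents, held no CPLX3 UMI in 370 nuclei at full depth (a share with a UMI of up to 0.811% by the same measure). With counts this low in every subclass, CPLX3 could not be used to judge the label in these libraries.

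DRD1 (ENSMODG00000023683) was detected in the L6b-labelled nuclei at 27.2 CPM (15 UMIs) in animal 1 and 9.92 CPM (5 UMIs) in animal 2, against 13.1 and 8.54 CPM in the other glutamatergic nuclei. The ratio was 2.08 in animal 1 (95% interval of the counts 1.16 to 3.44) and 1.16 in animal 2 (0.376 to 2.72). Both L5NP, at 45.2 and 36.8 CPM, and L6CT, the corticothalamic neurons of the sixth layer, at 28.5 and 23.2 CPM, lay above L6b in each animal. Thinned to 2000 UMIs, 3 of 109 L6b-labelled nuclei held a DRD1 UMI (2.75%, 0.571 to 7.83), beside 5.23% of L6CT, 6.22% of L5NP and, as background, 1.03% of oligodendrocytes. The last share lies inside the L6b interval, so DRD1 was not separable from background at this depth. Without thinning the shares were 16.5% in L6b, 18.8% in L6CT, 24.3% in L5NP and 1.46% in oligodendrocytes, whose median depth of 1917 UMIs was far below the 9212 of L6b. NXPH4 carries no symbol in the files and was not analysed here.

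A wider list of genes known from layer 6b and subplate of rodents was met in part. Of its 23 genes 20 had a symbol, 11 reached 50 CPM in L6b or in the other glutamatergic nuclei of both animals, 3 were at least 3-fold higher in L6b in both animals and 1 was at least 3-fold lower. Across all genes, 3.43% of the 3730 that reached this level were at least 3-fold higher (128 genes) and 4.24% at least 3-fold lower (158 genes). TMM scaling, an alternative to the total count, gave 98 higher and 203 lower, which changed the higher share of calls from 44.8% to 32.6%. Just inside the 3-fold limit lay HTRA1 (3.00-fold and 4.44-fold higher), while SAMD5 (ratios 0.290 and 0.332) and CPNE4 (0.333 and 0.288) lay on either side of the lower limit. The median log2 ratio of the 11 genes was 1.58, against 0.06 over all 3730. The 3 higher genes were HCRTR2, RXFP1 and TMEM163. HCRTR2 fell short of 3-fold in animal 1 with TMM scaling (2.81-fold) and with subclass labels predicted from other genes (2.86-fold), which left 2 of the 11 genes higher.

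HCRTR2 (ENSMODG00000018787), the orexin receptor 2, stood at 530 and 704 CPM in the L6b-labelled nuclei of animals 1 and 2, against 165 and 166 CPM in the other glutamatergic nuclei. It lay at 532, 529, 694 and 712 CPM in the L6b-labelled nuclei of libraries 1A, 1B, 2A and 2B, each above every library's value for the other glutamatergic nuclei, the highest of which was 169 CPM. L6CT came next at 423 and 476 CPM. The gap between L6b of animal 1 and L6CT of either animal was smaller than the gap between the L6b values of the animals. At 2000 UMIs 64.2% of L6b-labelled nuclei held an HCRTR2 UMI (54.5 to 73.2), against 45.1% of L6CT, 33.0% of L5NP and 2.71% of oligodendrocytes. Outside the glutamatergic class, Vip interneurons held 551 and 631 CPM, above L6b in animal 1 and below it in animal 2, and the share of Lamp5 interneurons with a UMI was 45.6%. At full depth 94.5% of L6b-labelled nuclei did.

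RXFP1, a receptor of the peptide hormone relaxin, was at 645 and 690 CPM in L6b, with L6CT at 430 and 472 and L5NP at 364 and 439. Frem1 interneurons held more RXFP1 than L6b, at 1036 and 1128 CPM. TMEM163, a membrane protein that moves zinc, was at 316 and 381 CPM in L6b, with L5NP at 221 and 190, L5PT, the pyramidal tract neurons of the fifth layer, at 220 and 198, and L6CT at 58.3 and 58.9. These 3 genes were highest in L6b among the 8 glutamatergic subclasses in each animal. KCNAB1, a potassium channel subunit, GABRA5, a GABA-A receptor subunit, INPP4B, a lipid phosphatase, and SLC1A2, a glutamate transporter, also had their highest glutamatergic level in L6b in both animals without reaching 3-fold in both. Their L6b levels in animals 1 and 2 were 654 and 444 CPM for KCNAB1, 448 and 611 for GABRA5, 198 and 236 for INPP4B, and 547 and 714 for SLC1A2. Some margins were narrow: IT_B held 186 and 184 CPM of INPP4B, IT_C held 429 CPM of GABRA5 in animal 1, and L5NP held 543 and 683 CPM of SLC1A2.

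TRPC4, a cation channel, was at 134 and 123 CPM against 58.9 and 44.2. CDH18, a cadherin, was below the rest in both animals, at 706 and 726 CPM against 992 and 945. COL8A1, a collagen, was at 41.8 and 57.5 CPM against 59.7 and 37.4, below the rest in animal 1 and above it in animal 2, while L5NP held 631 and 481 CPM.

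Other members of the list were near 0. CCN2, a secreted matrix protein that marks layer 6b in mice, had 1 UMI in animal 1 and 0 in animal 2, while microglia had 81.1 and 92.5 CPM. NR4A2, a nuclear receptor and a subplate marker of placental mammals, had 1 UMI in each animal (1.82 and 1.98 CPM), while IT_D, an intratelencephalic subclass, had 135 and 178 CPM. SVIL, COBLL1 and CRYM had at most 2 UMIs in either animal. MOXD1 had 9 UMIs in animal 1 and 0 in animal 2. ZFHX4, a homeobox transcription factor, was the lower member, with 34.5 CPM (19 UMIs) and 5.95 CPM (3 UMIs) against 261 and 219 CPM elsewhere. The nuclei thus held the orexin and relaxin receptor genes of the rodent list at high levels and at most 1 UMI in either animal of CCN2 and NR4A2, so the list is met in part. They are therefore called by that label and not as a defined cell type.

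**Figure D1:**
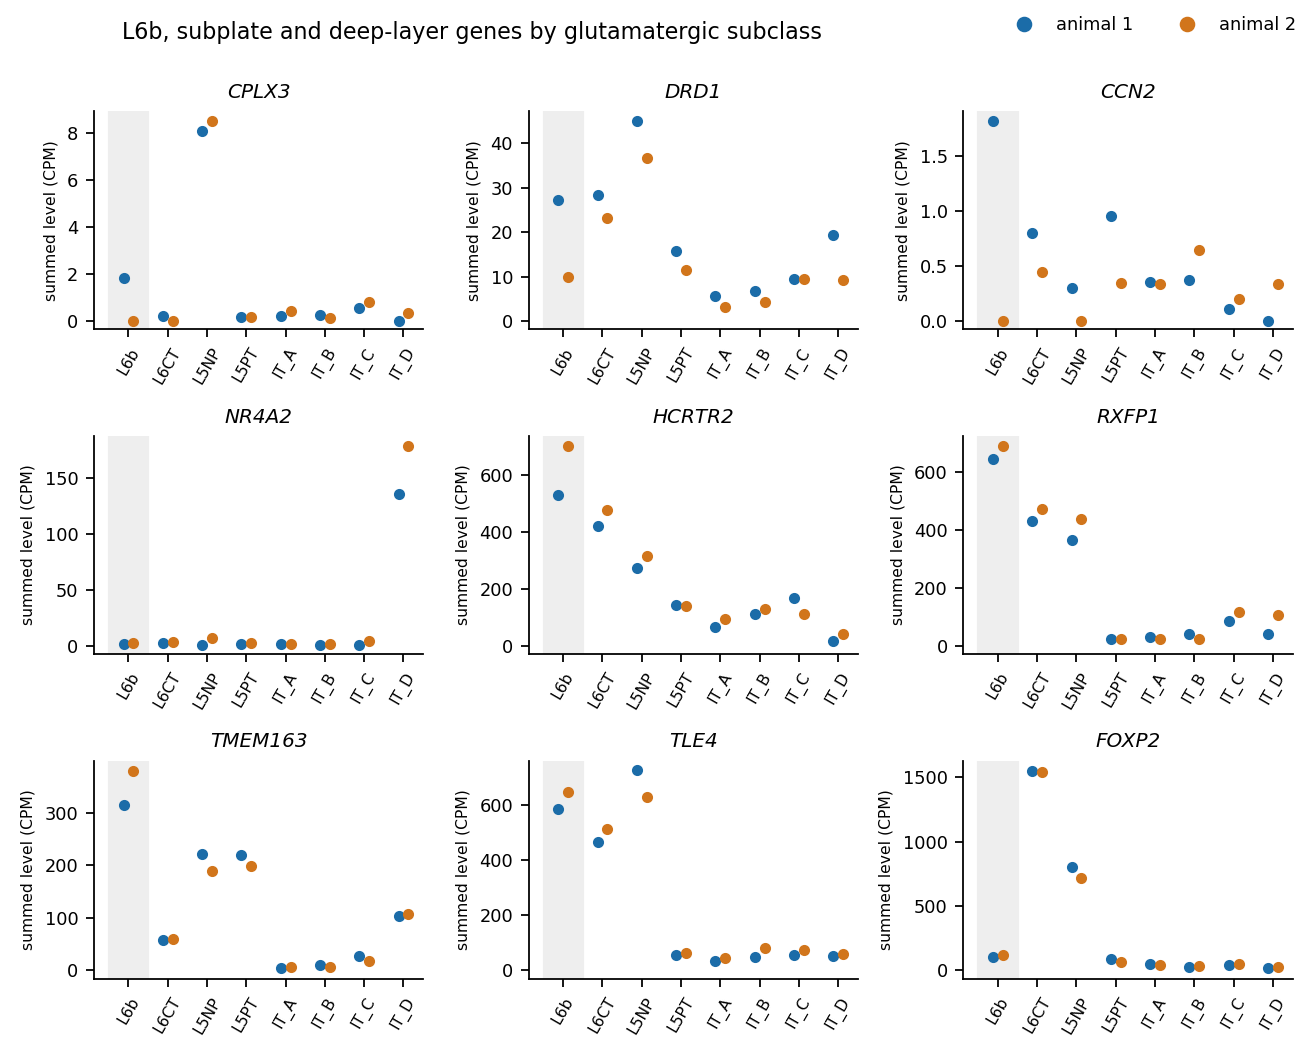
Summed level in CPM (vertical axis, a separate linear scale for each gene) of 9 genes in the 8 glutamatergic subclasses, with a point for each animal and L6b shaded. HCRTR2, RXFP1 and TMEM163 were highest in L6b in both animals, CPLX3 and DRD1 were highest in L5NP, NR4A2 in IT_D, and FOXP2 in L6CT.

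A second list held genes of deep-layer and corticothalamic neurons. Of 17 with a symbol, 11 reached 50 CPM, and 10 of these were above the rest in both animals, as were 44.8% of all 3730 genes tested. Of the 11, 1 was at least 3-fold higher (TLE4, 9.09% against 3.43% of all genes) and 0 at least 3-fold lower, with a median log2 ratio of 1.39. TLE4 was under 3-fold in animal 1 (2.84-fold) with the other subclasses weighted equally. TLE4, a transcriptional corepressor of deep-layer neurons, was at 586 and 651 CPM in L6b, beside 467 and 513 in L6CT, 728 and 630 in L5NP, and 153 and 139 over all other glutamatergic nuclei. SOX5, a transcription factor of early-born deep neurons, was at 1712 and 1729 CPM in L6b against 708 and 659 elsewhere, and ZFPM2, a zinc-finger cofactor, at 1358 and 1420 against 544 and 519. NFIA, a nuclear factor I gene, was at 2003 and 1696 CPM, about the level of L6CT (2063 and 1801). Among the 11 the exception was FOXP2, a forkhead transcription factor of corticothalamic neurons. L6b held 105 and 117 CPM, against 1554 and 1539 CPM in L6CT and 802 and 720 CPM in L5NP. Of the genes under 50 CPM in L6b, CHN2, a Rac GTPase-activating protein (10.9 and 1.98 CPM against 51.1 and 35.7), and FEZF2, a transcription factor of subcortical projection neurons (9.08 and 5.95 against 13.8 and 11.8), were also below the other glutamatergic nuclei in both animals. Markers of other glutamatergic subclasses were mixed: of 7 tested, ETV1, a transcription factor of the fifth layer, was higher (142 and 141 CPM against 35.1 and 25.9) but lay below the 230 and 270 CPM of L5NP, and CUX2, a homeobox factor of upper layers, was lower (14.5 and 13.9 CPM against 219 and 348).

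Pan-neuronal and glutamatergic class markers showed no gene past 3-fold among 5 tested. SLC17A6, the vesicular glutamate transporter 2, was at 56.3 and 71.4 CPM against 24.9 and 24.7, and SNAP25, a vesicle fusion protein, at 1024 and 962 against 1355 and 1343. Markers of other cell classes summed to levels near those of the other glutamatergic nuclei. The summed level of 11 GABAergic markers was 98.0 and 95.2 CPM in L6b against 138 and 144 CPM in the other glutamatergic nuclei, with ERBB4 making up 72.6 and 65.5 CPM and SLC32A1 and VIP at 0 in both animals. The summed level of 17 non-neuronal markers was 198 and 252 CPM against 189 and 186, with PDGFRA, CSPG4, CSF1R, CX3CR1, C1QA and P2RY12 at 0 in both animals. The non-neuronal sum was higher in L6b of animal 2, where MBP, a myelin gene, stood at 129 CPM against 77.5, and its part in the results was not tested. Of claustrum and striatum genes 4 were tested and 1 was lower (NTNG2, 3.63 and 3.97 CPM against 66.0 and 86.2).

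The genes with the largest ratios were chosen by rule as the 15 in each direction with a symbol. At the top stood ITGA11 (ENSMODG00000009413), a collagen-binding integrin subunit, with 178 and 192 CPM in L6b against 4.49 and 4.22 CPM in the other glutamatergic nuclei, 39.6-fold (95% interval of the counts 31.4 to 49.7) and 45.5-fold (36.1 to 56.9) higher. Its L6b levels in the 4 libraries were 186, 168, 211 and 177 CPM, and those of the other glutamatergic nuclei did not exceed 4.90 CPM. NECAB1 (ENSMODG00000007570), a neuronal calcium-binding protein, was at 715 and 662 CPM against 20.7 and 19.4, 34.6-fold and 34.1-fold higher, and the spread between the animals was 0.01 on the log2 scale (SD, n = 2). Among glutamatergic subclasses IT_B came next with 71.2 and 126 CPM of NECAB1, and Frem1 interneurons held 229 and 233 CPM. At 2000 UMIs 68.8% of L6b-labelled nuclei held a NECAB1 UMI (59.2 to 77.3), against 2.93% of L6CT, 3.82% of L5NP and 0.271% of oligodendrocytes.

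Of the 15, ANOS1, a secreted protein known for its role in axon and neuron migration, was at 70.8 and 67.4 CPM against 2.90 and 2.61. SERPINE2, a secreted protease inhibitor, was at 123 and 51.6 CPM against 4.63 and 3.17, with 68 and 26 UMIs behind the L6b values. VWC2, a secreted inhibitor of bone morphogenetic proteins (BMPs), was at 541 and 436 CPM against 33.6 and 20.4, and L5NP was the other high subclass at 326 and 333 CPM. CXCL12, a chemokine, was at 63.6 and 65.5 CPM against 4.50 and 1.96, with IT_D at 42.2 and 16.6, and its mean log2 ratio went from 4.44 to 3.18 with the other subclasses weighted equally. SEMA3C, a secreted semaphorin, was at 218 and 278 CPM against 15.6 and 12.7, and NXPH2, a neurexophilin, at 924 and 964 CPM against 82.4 and 56.7. For NXPH2 the L5NP levels of 598 and 716 CPM were closest.

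The other 7 span receptors, signalling and nuclear proteins. PTH2R, a receptor of the peptide TIP39, was at 58.1 and 111 CPM against 2.89 and 2.90. ZFHX3, a homeobox transcription factor, was at 212 and 200 CPM against 13.1 and 10.4, and SMAD1, which carries BMP signals to the nucleus, at 114 and 69.4 against 11.5 and 4.99. LHFPL2, a tetraspan membrane protein, was at 249 and 226 CPM against 21.0 and 11.5. PDE3A, a cyclic nucleotide phosphodiesterase, was at 140 and 83.3 CPM against 15.2 and 7.55. ZNF385D, a zinc-finger protein, was at 842 and 688 CPM against 92.1 and 59.1. CFTR, a chloride channel, was at 54.5 and 61.5 CPM against 3.76 and 7.03, and was the exception among the 15 in that another glutamatergic subclass, IT_D, was higher at 120 CPM in both animals. With the 7 other subclasses weighted equally its mean log2 ratio went from 3.49 to 1.55, under 3-fold. Some of these genes were also high outside the glutamatergic class: ANOS1 reached 600 and 608 CPM in astrocytes, SERPINE2 233 and 282 CPM in oligodendrocyte precursors, ZFHX3 1092 and 898 CPM in microglia, VWC2 673 and 697 CPM and ZNF385D 1475 and 1754 CPM in Pvalb interneurons, and NXPH2 1332 and 1151 CPM in Sst interneurons.

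**Figure D2:**
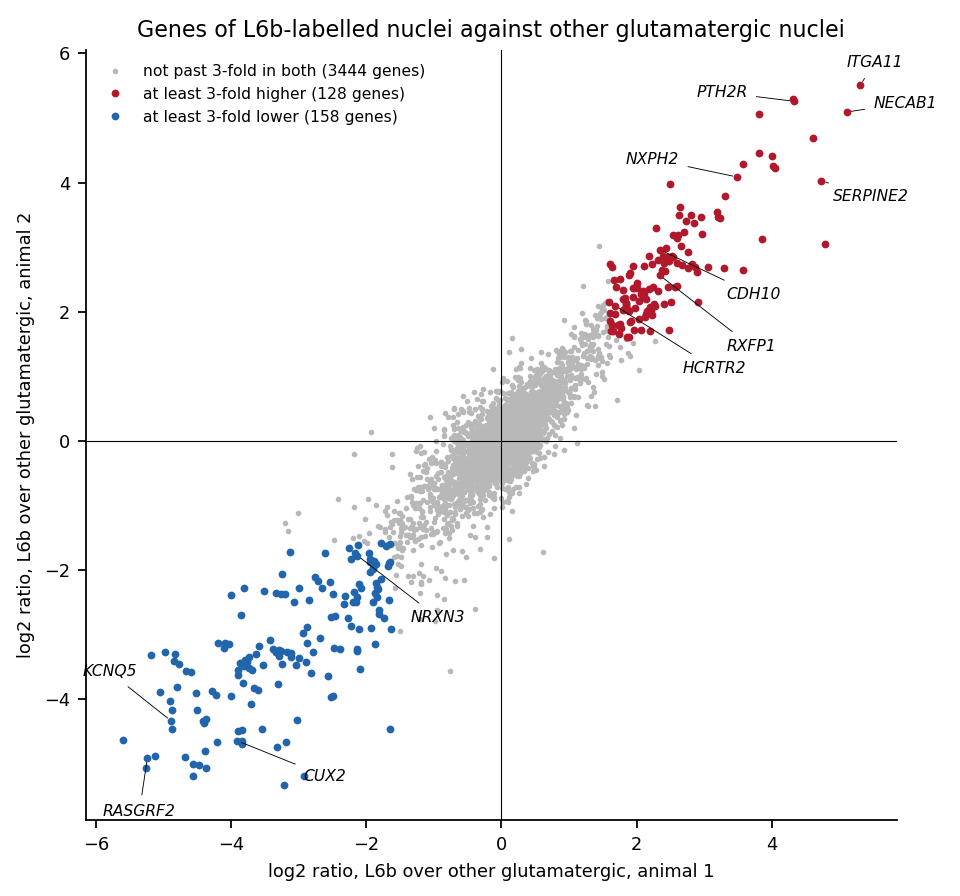
Log2 ratio of the summed level in L6b-labelled nuclei over the other glutamatergic nuclei for 3730 genes, in animal 1 (horizontal) and animal 2 (vertical), with a point for each gene. The 128 genes at least 3-fold higher in both animals are red and the 158 at least 3-fold lower are blue.

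A narrower set was high against every other glutamatergic subclass. At least 3-fold above each of the 7 in both animals stood 16 genes, 13 with a symbol: AFAP1L2, ANOS1, ITGA11, LHFPL2, MYO5B, NECAB1, PRKCD, PTH2R, RIPOR2, SEMA3C, SERPINE2, WASF3 and ZFHX3. Of these AFAP1L2, an actin-associated adaptor, was at 96.2 and 87.3 CPM against 21.6 (IT_A) and 20.9 (IT_B) CPM in the highest other subclass of each animal. WASF3, which drives actin branching, was at 267 and 250 CPM against 65.4 (L6CT) and 58.5 (L5NP), and RIPOR2, an inhibitor of the small GTPase RhoA, at 301 and 321 against 76.5 and 60.4 (both IT_B). In the opposite direction 12 genes, 10 with a symbol, were at least 3-fold below each of the 7: ALCAM, ARAP2, KCNAB2, KCTD16, MAGI1, PKNOX2, RASGRF2, SIDT1, SNTG2 and STUM.

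Among the 15 genes with the largest ratios in the lower direction, RASGRF2 (ENSMODG00000020263), an activator of Ras and Rac, was at 14.5 and 19.8 CPM in L6b (8 and 10 UMIs) against 550 and 599 CPM in the other glutamatergic nuclei, 37.8-fold (19.2 to 87.6) and 30.2-fold (16.4 to 63.0) lower. Its library values in L6b ran from 10.2 to 21.7 CPM and elsewhere from 546 to 608 CPM. KCTD16, an auxiliary subunit of GABA-B receptors, was at 78.1 and 61.5 CPM against 1855 and 2260, with IT_D at 5486 and 6517. KCNQ5, a subunit of the M-type potassium channel, was at 30.9 and 39.7 CPM against 916 and 804. GRIA4, an AMPA receptor subunit, was at 36.3 and 41.7 CPM against 751 and 830, 20.7-fold and 19.9-fold lower. CDH8, a cadherin, was at 27.2 and 15.9 CPM against 646 and 513, with L5PT at 2393 and 2035.

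The other 10 had under 10 UMIs in each L6b sum, so that their ratios are loose. CHST9 and CHST8, which sulfate sugar chains, had 1 and 3 UMIs and 9 and 3 UMIs in animals 1 and 2, against 208 and 201 CPM and 365 and 193 CPM elsewhere. For CHST9 the fold was 33.8 in animal 2 (95% interval 11.6 to 164). CNTN6, a contactin, NTNG1, a netrin-G, and NDST3, which modifies heparan sulfate, were at 7.26 and 7.93, 7.26 and 5.95, and 14.5 and 11.9 CPM, against 254 and 235, 214 and 132, and 306 and 333 CPM. SMAD3, which carries signals of transforming growth factor beta (TGF-beta), had 1 and 7 UMIs against 265 and 344 CPM. SMAD3 was also low in L6CT (18.5 and 36.6 CPM) and L5NP (22.4 and 27.8 CPM). So was CHST9, at 17.9 and 22.1 CPM in L6CT and 14.7 and 13.2 CPM in L5NP. COL19A1, a collagen, had 2 and 0 UMIs against 116 and 120 CPM. RNF144B, ZBTB7C and SNTG2 completed the set, at 5.45 and 5.95, 1.82 and 5.95, and 9.08 and 11.9 CPM. In both animals each of the 15 lower genes had its lowest glutamatergic level in L6b. Of the 158 lower genes 114 did so, against 10.3% of the 3730 genes. Of the 128 higher genes 113 were highest in L6b, against 16.0%. The genes were chosen by their ratio to the pooled rest, so such ranks follow largely from the choice. Of the lower genes 83 (52.5%) were also lower in L6CT and 75 (47.5%) in L5NP, while 3 and 0 were higher there. Of the higher genes 39 (30.5%) were also higher in L6CT and 22 (17.2%) in L5NP, while 0 and 2 were lower there.

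**Figure D3:**
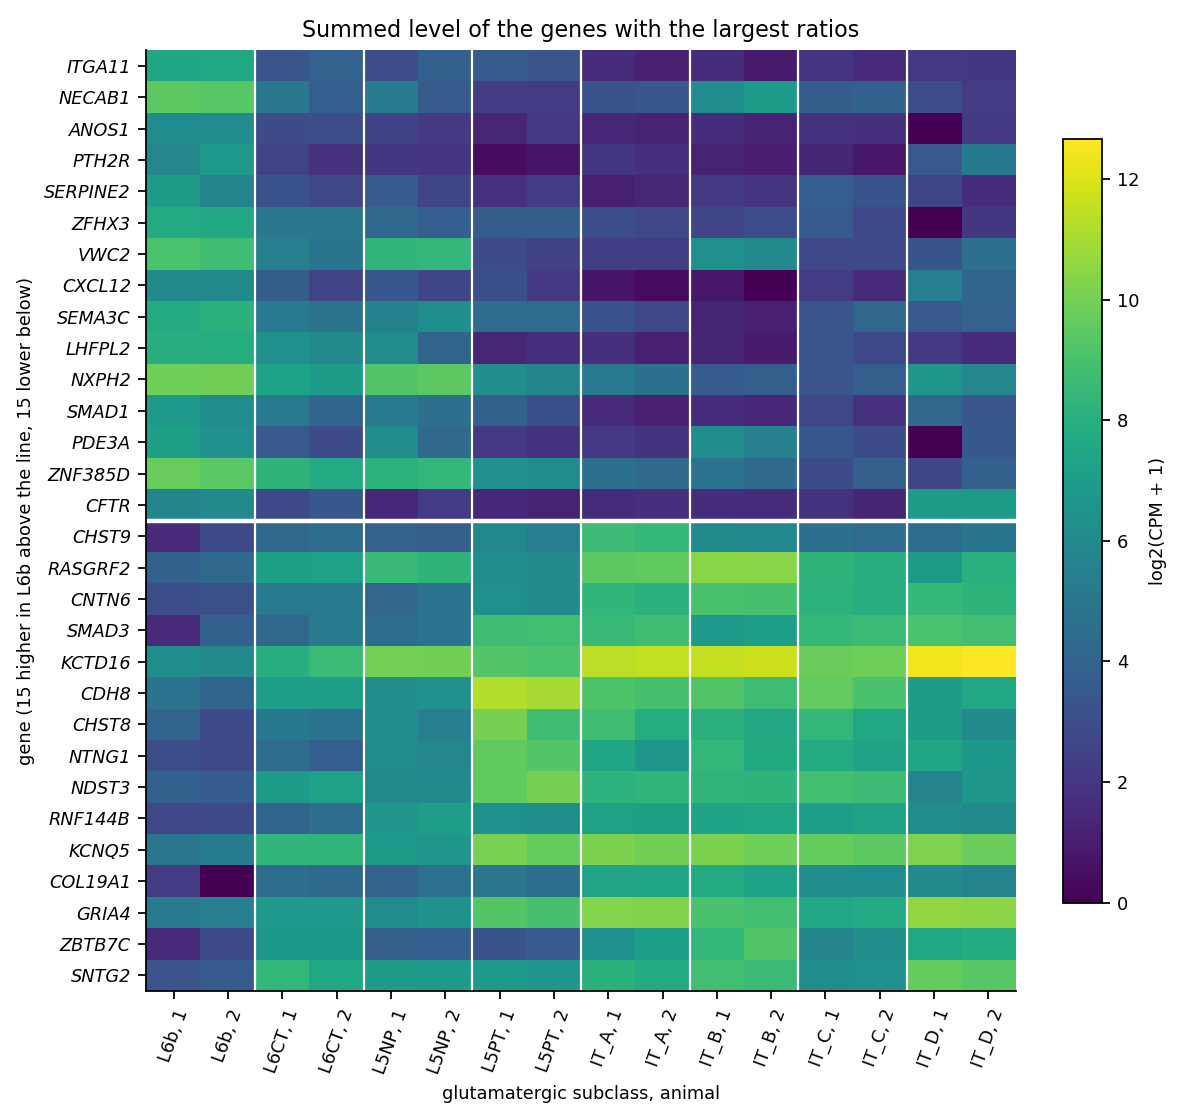
Summed level, as log2(CPM + 1), of the 15 genes with the largest ratio in each direction (rows) in the 8 glutamatergic subclasses of each animal (columns). VWC2, NXPH2 and ZNF385D were also high in L5NP, CFTR was higher in IT_D, and each of the 15 lower genes was lowest in L6b in both animals.

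The leading genes were also counted nucleus by nucleus. At 2000 UMIs an L6b-labelled nucleus of animal 1 held a median of 5 of the 15 higher genes (range 2 to 9) and of animal 2 a median of 4 (range 1 to 8), and 58.7% of the 109 held 5 or more. In L6CT the median was 1 in each animal and 1.12% held 5 or more (39 of 3477 nuclei), in L5NP the median was 2 and 1.84% did (13 of 707), and in the other 5 subclasses 0 nuclei did. At full depth all 109 L6b-labelled nuclei held at least 5 of the 15 genes, as did 10.3% of L6CT and 23.9% of L5NP nuclei. The 15 genes were chosen from these same nuclei, so the counts are no test of the label. They rise with depth, a gene without a UMI may still be expressed, and how evenly the genes are spread over nuclei cannot be read from them.

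**Figure D4:**
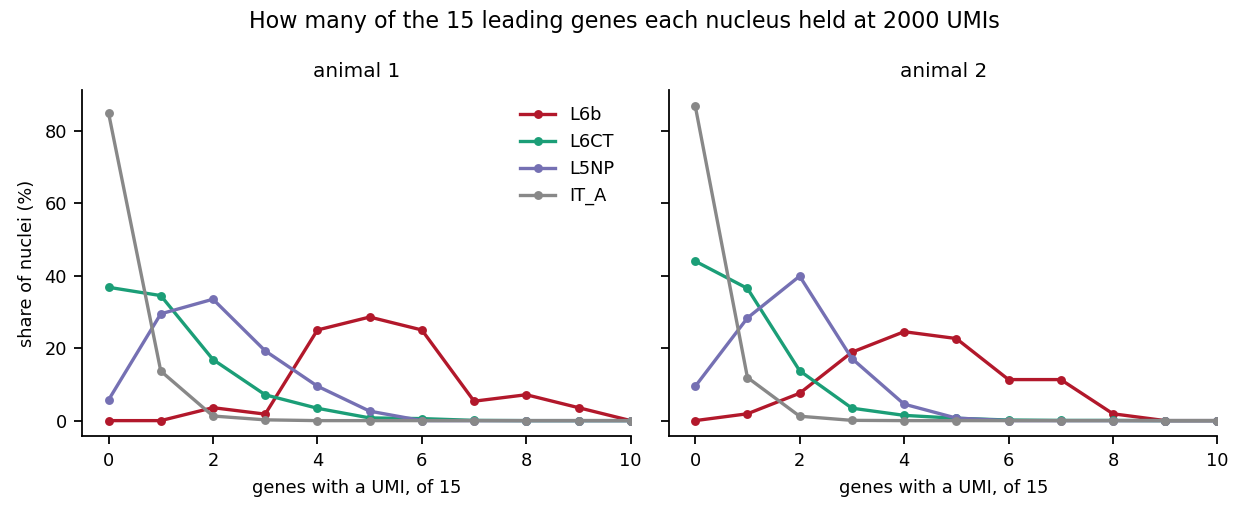
Share of nuclei in percent (vertical axis) by the number of the 15 leading genes with a UMI after thinning to 2000 UMIs (horizontal axis), for L6b, L6CT, L5NP and IT_A in each animal. The L6b curves peak at 5 genes in animal 1 and at 4 in animal 2, the L5NP curves at 2, and the L6CT and IT_A curves at 0.

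Against single subclasses, L6b-labelled nuclei were closest to L6CT and L5NP. Across 3000 variable genes the Spearman correlation of the summed levels within an animal was 0.827 and 0.821 with L6CT, 0.813 and 0.789 with L5NP, 0.731 and 0.716 with L5PT, 0.709 and 0.714 with IT_C, and 0.604 to 0.652 with IT_A, IT_B and IT_D. L6b of animal 1 correlated with L6b of animal 2 at 0.867. These sums share libraries within an animal and differ in depth. With as many nuclei drawn from each subclass as L6b holds, the correlations were 0.771 and 0.773 with L6CT and 0.781 and 0.739 with L5NP, so the order of L6CT and L5NP differed between the animals. Between L6b and L6CT 81 genes of 3646 (2.22%) were at least 3-fold higher in L6b and 79 (2.17%) lower, and between L6b and L5NP 92 of 3789 (2.43%) were higher and 98 (2.59%) lower. Each other subclass gave more. L5PT gave 172 higher (4.62%) and 166 lower (4.46%), and IT_A gave 216 (5.74%) and 203 (5.40%). For IT_B the counts were 223 (6.01%) and 219 (5.91%), for IT_C 162 (4.35%) and 152 (4.08%), and for IT_D 239 (6.46%) and 194 (5.24%).

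The largest ratios against L6CT were AFAP1L2, 27.6-fold and 35.9-fold higher in L6b, NECAB1 (22.2-fold and 51.5-fold) and ITGA11 (18.8-fold and 13.2-fold). CDH10, a cadherin, was 7.64-fold and 9.56-fold higher than in L6CT. Lower than in L6CT were FOXP2, NRP1, a semaphorin receptor (36.3 and 35.7 CPM against 558 and 507), OLFM3, SPON1, KIT and GFRA2. Against L5NP, COL12A1, a fibril-associated collagen, was at 54.5 and 95.2 CPM in L6b and 1.79 and 2.36 CPM in L5NP, and EYA2, a transcriptional coactivator and phosphatase, was 15.8-fold and 16.5-fold higher. Lower than in L5NP were ALCAM, an adhesion molecule (27.2 and 19.8 CPM against 918 and 941), PIEZO2, a mechanically gated channel (12.7 and 3.97 against 298 and 284), and NTS, the peptide neurotensin (1 and 0 UMIs against 112 and 106 CPM).

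**Figure D5:**
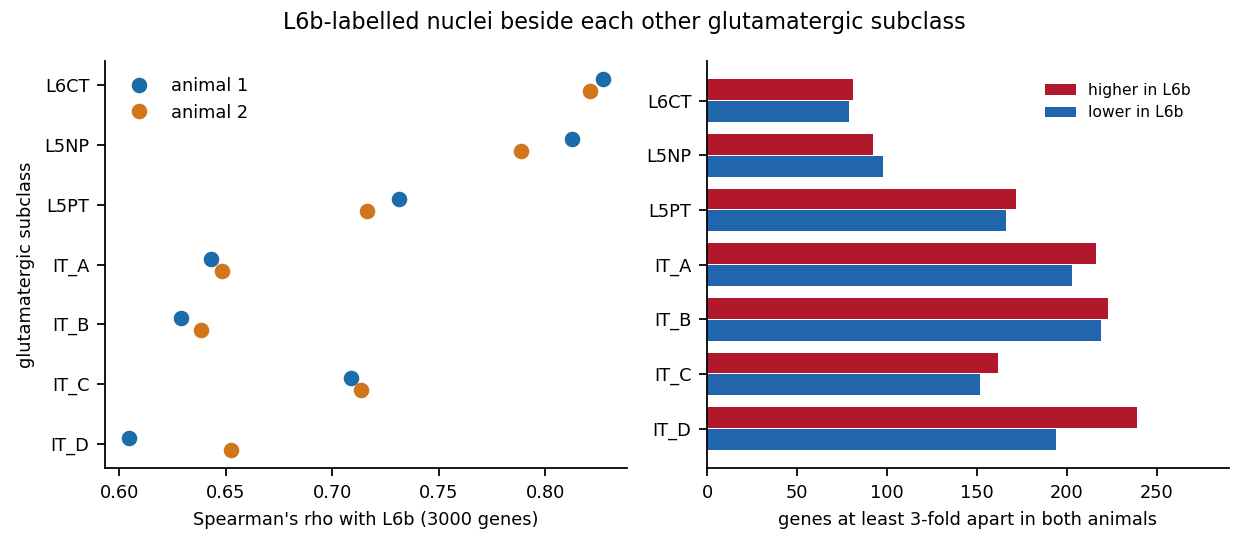
Left, Spearman's rho across 3000 variable genes between the summed levels of L6b-labelled nuclei and each other glutamatergic subclass, with a point for each animal. Right, the number of genes at least 3-fold higher (red) or lower (blue) in L6b in both animals. L6CT had the fewest such genes, 81 and 79, and the highest rho.

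Receptors and channels were then taken by list. Of neuromodulator receptors 67 of 81 had a symbol but only 7 reached 50 CPM. Of those 3 were higher (42.9%, against 3.43% of all genes): HCRTR2, RXFP1 and CHRNA4, the nicotinic acetylcholine receptor alpha 4 subunit, at 231 and 208 CPM against 29.8 and 18.9. Without HCRTR2, which lost its call with TMM scaling and with predicted labels as given above, 2 of the 7 were higher. HCRTR2 and RXFP1 were already counted in the rodent list, and CHRNA4 reached 50 CPM only through L6b, where it was high. With no filter on low values 6 of 66 receptors were higher and 3 lower, beside 568 higher of all 27616 genes. The 42.9% thus depends on which receptors passed the filter. HTR7, a serotonin receptor, was lower, with 1 and 3 UMIs against 76.7 and 67.1 CPM. NTSR1, a neurotensin receptor used as a marker of corticothalamic neurons in mice, was at 292 and 222 CPM in L6b, 56.7 and 69.1 in L6CT and 273 and 231 in L5PT. The peptide list had 2 tested genes, NXPH2 as above and CCK, the peptide cholecystokinin, lower at 10.9 and 9.92 CPM against 60.3 and 65.3.

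Glutamate, GABA and glycine receptor genes were close to the rest, with 1 of 27 tested higher (3.70%) and 1 lower (3.70%). The higher gene was GLRA2, a glycine receptor subunit, at 265 and 262 CPM against 70.4 and 72.2. The lower gene was GRIA4, while its relative GRIA1 was at 621 and 583 CPM against 570 and 500. GRIK3, a kainate receptor subunit, was at 1200 and 1192 CPM against 439 and 307 and fell short of 3-fold in animal 1. Of 32 potassium channel genes 1 was higher (KCNIP1, a channel-interacting protein, 372 and 260 CPM against 79.4 and 67.0, with L5NP at 310 and 375 and L6CT at 293 and 285) and 6 were lower (18.8%, against 4.24% of all genes): KCNQ5, KCNH5, KCNH7, KCND3, KCNAB2 and DPP10. KCNH7, an ERG-type channel, was at 171 and 165 CPM against 1670 and 1601. Among 19 sodium, calcium and other cation channel genes, RYR3, a calcium release channel, was higher at 1064 and 1103 CPM against 248 and 225, as was CACNB2, a calcium channel beta subunit, at 1256 and 1188 against 305 and 323. TRPC7, TRPM3 and CACNG3 were lower, so that 10.5% of this list was higher and 15.8% lower, against 3.43% and 4.24% of all genes. Of 20 vesicle release genes 0 were higher and 1 was lower (5.0% of the list, near the 4.24% of all genes), namely BAIAP3 (2 UMIs in each animal against 55.1 and 57.5 CPM).

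Adhesion and guidance genes were taken by list as well. In the cadherin list 1 of 17 was higher (5.88%, against 3.43% of all genes) and 5 were lower (29.4%, against 4.24%). CDH10 was at 2206 and 3838 CPM against 435 and 493, with L5NP next among glutamatergic subclasses at 975 and 1414 and astrocytes at 2441 and 1879, whereas CDH7, CDH8, CDH12, CDH20 and CDH22 were lower. CDH22 had 0 UMIs in L6b of both animals against 87.1 and 92.1 CPM elsewhere. That was at least 16.0-fold and 15.5-fold lower with the floor set at 3 UMIs for each sum. CDH22 was also low in L6CT (7.97 and 12.9 CPM), L5NP (3.29 and 8.49) and IT_C (11.3 and 12.5), while IT_A held 158 and 147 CPM. Of 28 axon guidance genes 1 was higher (SEMA3C) and 7 were lower (25.0%): NRP1, NTNG1, NTNG2, SEMA3A, SLIT2, SLIT3 and UNC5D, with a median log2 ratio of -0.85 over the 28. For NRP1 and SLIT3, however, L6b ranked 4 from the top of the 8 glutamatergic subclasses in animal 1 and 5 in animal 2. L6CT held the most NRP1 (558 and 507 CPM) and IT_A the most SLIT3 (702 and 507 CPM). UNC5D, a netrin receptor, was at 41.8 and 119 CPM against 1206 and 1267. Among 21 neurexin, neurexophilin and synaptic adhesion genes, NXPH2 and TENM1, a teneurin (808 and 853 CPM against 206 and 165, with L6CT at 784 and 708), were higher, and CNTN6, LRRTM4 and NRXN3 were lower (9.52% and 14.3% of the list). NRXN3, a presynaptic neurexin, was at 1465 and 1724 CPM against 6425 and 5921. SEMA3A and NRXN3 were under 3-fold lower in 1 animal, with the other subclasses weighted equally (2.65-fold and 2.91-fold) and with predicted labels (2.19-fold and 2.23-fold). SLIT3 was under 3-fold lower in both animals with equal weights (2.26-fold and 2.56-fold). NRP1 was so in animal 1 with predicted labels (2.51-fold). Of the axon guidance genes 5 of 28 were lower with predicted labels and 8 of 29 with TMM scaling. Of 13 matrix and proteoglycan genes 4 were higher, SULF2, COL12A1, ADAMTS3 and HS3ST2, and 5 lower, CHST9, COL19A1, COL25A1, NDST3 and NDST4 (30.8% and 38.5% of the list, against 3.43% and 4.24% of all genes). SULF2, which edits heparan sulfate, was at 465 and 345 CPM, below the 487 and 477 of L5NP, and its call was lost with TMM scaling (2.95-fold in animal 1). The SULF2 call was also lost with equal weights (2.55-fold and 1.99-fold) and when thinned (2.92-fold in animal 1). HS3ST2, a heparan sulfate 3-O-sulfotransferase, was at 890 and 629 CPM against 132 and 98.8.

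Of 32 projection-neuron transcription factor genes 4 were higher, ETV1, NR4A3, TLE4 and ZFHX3 (12.5%, against 3.43% of all genes), and 6 lower, CUX2, FOXP1, LMO4, MEIS2, NR2F1 and ZFHX4 (18.8%, against 4.24%). MEIS2, a homeobox factor, was at 49.0 and 81.3 CPM against 470 and 421, with L6CT at 734 and 601. With predicted labels MEIS2 (2.00-fold) and NR2F1 (2.49-fold) fell short of 3-fold lower in animal 1, and the list gave 5 higher and 4 lower. With equal weights ETV1 (2.42-fold and 2.20-fold) and TLE4 (2.84-fold in animal 1) fell short, and the list gave 3 higher and 7 lower. FOXP1 was at 116 and 115 CPM against 447 and 408. NR4A3, an inducible nuclear receptor, was at 85.3 and 69.4 CPM against 17.0 and 13.9, and was the higher of 2 tested genes among activity-regulated genes, whose summed level in L6b was 596 and 1349 CPM against 851 and 1791. In the growth factor and morphogen list 3 of 13 were higher and 0 lower (23.1% and 0%, against 3.43% and 4.24% of all genes): FGFR1, a fibroblast growth factor receptor (103 and 51.6 CPM against 12.5 and 7.99), TGFB2, a TGF-beta ligand (70.8 and 71.4 against 14.2 and 10.2), and TGFBR1, a TGF-beta receptor (63.6 and 65.5 against 11.4 and 9.53). Each of these 3 reached 50 CPM only through L6b, where it was high, so the 23.1% partly reflects the filter. A filter of 100 CPM gave 0 of 9 higher, and no filter gave 3 of 43, with 2 lower. Thinned counts gave 1 of 11 higher, DESeq2 size factors 3 of 13, and TMM scaling 2 of 13, with 1 lower. SMAD1 was higher and SMAD3 lower, as given above.

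Between the L6b-labelled nuclei of the 2 animals, 37 of 3861 genes (0.958%) were at least 2-fold higher in animal 2 and 69 (1.79%) at least 2-fold higher in animal 1, counting genes that reached 50 CPM in one animal and whose library values did not interleave. With 1 animal on each side there was no replicate check. Among the genes with a symbol the largest ratio was ADAMTS2, a procollagen protease, at 138 CPM in animal 1 and 17.9 CPM in animal 2, 7.73-fold apart, against 1.54-fold in the other glutamatergic nuclei. SUSD1, SORCS1, EPHB2 and PLXNC1 followed, at 4.58-fold to 3.25-fold in L6b and 1.43-fold, 1.18-fold, 1.85-fold and 1.17-fold in the rest. Higher in animal 2 were DOK5, NDRG2, SLC25A17, ANAPC7 and UNC5D, from 5.31-fold to 2.85-fold in L6b and from 1.05-fold to 1.56-fold in the rest. Of the 106 genes, 2 of the 37 and 10 of the 69 also differed by at least 2-fold in the same direction in the other glutamatergic nuclei. Counting direction alone, 22 of the 37 and 59 of the 69 did. Animal, age, experimenter and nuclei sampled cannot be told apart here.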

How the data were processed

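Nuclear RNA of V1 was measured with droplet libraries carrying UMIs, 2 per animal from 2 animals of 1 group. The authors aligned reads with Cell Ranger (version 6.1.1 in the submitters' processing notes, 7.1.0 in the matrix headers) to the ASM229v1 opossum assembly, using an Ensembl annotation lengthened at the 3′ side of genes and counting introns as well, and deposited raw UMI counts per gene and barcode. They also deposited class, subclass and type labels from clustering, and a Scrublet doublet score per nucleus, a fraction between 0 and 1. Intronic reads and extended gene ends can add reads of overlapping genes, so overlapping or antisense neighbours and near-identical copies are uncertain. Of 30800 genes 11590 carried a symbol in the files, and no identifier matched the RefSeq table, so the others are unnamed. No column was left without a sample.

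Counts were summed over L6b-labelled nuclei and over the other labelled glutamatergic nuclei of each animal and divided by the sum's total (pandas 2.3.3 and numpy 2.4.6 under Python 3.11.15, with intervals from scipy 1.17.1 and neighbours from scikit-learn 1.9.0). A gene was tested at 50 CPM or more in the higher of both sums in both animals, and called at a ratio of 3 or more in the same direction in both. Sums under 3 UMIs in the lower group were set to 3. Intervals are exact (Clopper-Pearson) at 95% and cover counting error only; the upper limit for a share of 0 is 3 counts of the total. Nuclei were thinned to 2000 UMIs for shares of nuclei, which left out 152 of 3629 L6CT, 37 of 744 L5NP, 2201 of 4047 oligodendrocytes and 0 L6b-labelled nuclei. Nuclei called doublets were kept. The rule for named genes took, among those with a symbol, the 15 largest ratios in each direction by the smaller of the animals' ratios, the 10 largest over the highest other glutamatergic subclass, the 5 largest each way between animals, list members past the call, and the given L6b markers. Other genes, including those named against L6CT or L5NP alone and list members below the call, fall outside this rule and were chosen after their values were seen. The members and the gene lists were chosen with earlier results of these data known. On simulated counts with 200 changed genes among 30800, the comparison recovered 100.0% of 6-fold and 98.0% of 4-fold higher genes and 96.0% and 84.0% of 6-fold and 4-fold lower genes. The simulation held counting noise only, and changed only genes at 50 CPM or more in the other glutamatergic nuclei. Most of the leading higher genes lay under that level there, so the rates do not cover them. The 2 libraries of an animal differed beyond sampling noise (chi-square per degree of freedom 1.61 and 4.75) and were not duplicates. Alternatives were other scalings (edgeR 4.0.16 TMM factors and DESeq2 1.42.0 size factors, R 4.3.3), other filters and folds, equal weights of subclasses, no doublet calls, thinned counts, single animals, and labels predicted for each of 5 parts of the genes from the other genes and the other animal (30 components, 15 neighbours). Results for some items are not reported here.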

Additional observations from a re-analysis of the deposited data

How the results depend on the processing

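Each ratio was taken within an animal, which pairs L6b with the other nuclei of that animal, and no test was run. Against 128 higher and 158 lower genes, TMM scaling gave 98 and 203 and DESeq2 size factors 112 and 181, which moved the median log2 ratio of all genes by -0.21 and -0.11. No filter on low values gave 568 and 276, a filter of 100 CPM 88 and 100, a fold of 2 246 and 264, and equal weights of the 7 other subclasses 100 and 145. Predicted labels gave 129 and 152, of which 118 and 144 were the same genes as in the main comparison. Counts thinned to 2000 UMIs gave 115 and 116, of which 98 and 96 were the same. A single animal gave 161 to 189 higher and 205 to 215 lower genes. Of 84 named genes past the fold, each kept the sign of its mean log2 ratio under 8 alternatives, and 671 of 672 means stayed at least 2-fold, the exception being CDH7 when thinned (log2 ratio -0.84). Under the call rule itself, which needs 3-fold and 50 CPM in each animal, calls of these named genes were lost as follows. With TMM scaling HCRTR2 (2.81-fold in animal 1) and SULF2 (2.95-fold) fell short of 3-fold, and 4 higher genes (CFTR, COL12A1, FGFR1 and SERPINE2) missed the level. With equal weights CFTR, ETV1, KCNIP1, SULF2 and TLE4 (higher) and NRXN3, SEMA3A and SLIT3 (lower) fell short, and 3 lower genes (BAIAP3, CDH22 and NDST4) missed the level. With predicted labels HCRTR2 (2.86-fold in animal 1) and the lower genes KCND3, MEIS2, NR2F1, NRP1, NRXN3 and SEMA3A fell short. When thinned, ETV1, GLRA2 and SULF2 (higher) and BAIAP3, CCK, CDH22, HTR7, KCND3, LMO4, NR2F1, NTNG2 and TRPC7 (lower) fell short, and 9 higher genes and CDH7 missed the level. A filter of 100 CPM left out 14 higher and 9 lower genes of the named set. None of the named genes lost its call with DESeq2 size factors or without doublet calls. Over all genes these settings kept 112 and 127 of the 128 higher calls and each of the 158 lower calls. Lower genes with few UMIs moved furthest when thinned, among them NDST4 (-4.34 to -1.82), CHST9 (-5.17 to -2.91) and CNTN6 (-5.01 to -3.11). ZFHX4 and COL25A1 depended most on the animal, at -5.20 and -5.34 without animal 1 and -2.92 and -3.22 without animal 2.

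The log2 ratio of DRD1, 0.64, became 0.027 with equal weights and 1.29 when thinned, and was 0.22 to 1.05 in single animals. The mean share of nuclei with a DRD1 UMI, 2.78% at 2000 UMIs, was 7.33% at 4000 UMIs and 16.3% at full depth, and that of CPLX3 went from 0 to 0.893% at full depth. The L6b share was 0.448% over all neurons. With 1000 variable genes the mean correlations were 0.788 (L6CT), 0.753 (L5NP), 0.649 (L5PT), 0.625 (IT_C), 0.524 (IT_A), 0.503 (IT_B) and 0.521 (IT_D). With equal nuclei and 3000 genes they were 0.772, 0.760, 0.692, 0.673, 0.618, 0.611 and 0.603 for L6CT, L5NP, L5PT, IT_C, IT_D, IT_A and IT_B, which puts IT_D above IT_A and IT_B. The cause of these shifts was not tested. The alternatives planned for NXPH4 were not run, since no gene carried that symbol. With 53 to 56 nuclei per animal, L6b levels of a few CPM rest on under 5 UMIs.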

Other observations

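A few nuclei of other labels resembled the L6b-labelled nuclei. When each nucleus was placed by its nearest neighbours among nuclei of the other animal, 5 times with a different part of the genes left out, all 56 L6b-labelled nuclei of animal 1 and 48 of 53 of animal 2 were placed with L6b every time. So were 8 of 1677 L6CT nuclei in animal 1 and 3 of 1952 in animal 2. The 8 held a median of 8 of the 15 leading higher genes at full depth and the 3 a median of 5. The 15 genes were chosen for their high ratio in L6b and were not kept out of all 5 placements. Their counts in nuclei picked by those placements are therefore no test of the resemblance. Median depth was 10115 UMIs for the 8 and 2869 for the 3. Placed with L6b at least once were 41 and 11 L6CT nuclei, 1 L5NP nucleus of animal 1 and 0 nuclei of the other 5 glutamatergic subclasses. The labels of these L6CT nuclei were left as deposited.

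Of the 128 higher genes 46 had no symbol, as did 37 of the 158 lower genes. The largest ratios among them were ENSMODG00000049749, at 127 and 105 CPM in L6b against 6.40 and 2.67 CPM in the other glutamatergic nuclei, and ENSMODG00000051577, at 172 and 186 against 10.5 and 9.93. In the lower direction ENSMODG00000051473 was at 52.7 and 47.6 CPM against 1359 and 1419, and ENSMODG00000042178 at 21.8 and 19.8 against 451 and 668.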
